A study of Mus musculus with 9 samples.

Results

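Monocytes and macrophages are the phagocytes of the myeloid lineage, and 35 genes that mark or serve them were followed in mouse bone marrow cells carrying a NUP98-CDX fusion. The list holds receptors, transcription factors, complement subunits, lysosomal proteins and lipid-handling proteins. A gene counted as measured when a probe with its symbol was detected, meaning a detection p-value under 0.05, on 3 or more of the 9 arrays, and its brightest such probe stood for it. By this rule 28 of the 35 genes were measured, out of 10018 named genes in all, and 23 of them were detected on all 9 arrays. Cd163 (a haemoglobin scavenger receptor), Cd36 (a fatty acid and lipoprotein receptor), Abca1 (a cholesterol exporter) and Maf (a macrophage transcription factor) had probes that were detected on 0 arrays. Cd68, Spp1 and Ly6c2 had no probe under these symbols in the platform annotation. Klf4 and C1qa passed the detection rule only through the EGFP arrays, so the 28 genes are a selected share of the list.

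Marrow was taken from C57/B6 mice, 6 to 8 weeks old, treated with 5-FU, which kills cycling cells and so enriches primitive ones. They were transfected with NUP98-CDX4, NUP98-CDX1 or, as the control, EGFP, a green fluorescent protein, and every group was cultured in IMDM containing 2% serum, stem cell factor and IL-6. In the fusions a piece of NUP98, from the nuclear pore, is linked to CDX4 or CDX1, transcription factors of the caudal homeobox family. Total RNA of 3 samples a group was measured on 9 single-colour Illumina bead arrays. The labels give neither the promoter of the constructs nor a sort of transfected cells, and do not say whether replicates were separate animals or cultures, so the spread behind every p-value is that of these samples and may be technical. The file's column names carry a day number, 17, 17 and 20 for NUP98-CDX4, 28 for NUP98-CDX1 and 21 for EGFP, and what it counts is not stated. No day number is shared between groups, so day and construct cannot be told apart.

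As background, monocytes leave the marrow through the chemokine receptor CCR2 and can mature into macrophages in tissues. CSF1 acting on its receptor CSF1R drives their survival and differentiation, GM-CSF acts beside it, and the Ets-family factor PU.1, encoded by Spi1, is required for many of their genes. Mature macrophages carry the adhesion receptor ADGRE1, Fc receptors and scavenger receptors, secrete complement C1q, and digest what they engulf in lysosomes.

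The arrays detected 17257 to 19300 of 45281 probes, at mean signals of 400.6 to 754.3 intensity units. They were clustered by the signals of probes detected on no array and cut into 2 array sets, a number fixed beforehand. The labels do not name these sets. Spearman correlations of those signals were 0.735 to 0.765 within the brighter set, 0.43 to 0.455 within the dimmer set and 0.319 to 0.381 between sets. The dimmer set was thus held together less tightly. The brighter set held NUP98-CDX4 replicates 1 and 3, NUP98-CDX1 replicate 3 and EGFP replicates 1 and 2, and the dimmer set held the other 4 arrays. Levels below are background-corrected, quantile-normalized log2 intensities, which compare arrays for 1 probe and not 1 probe with another. A gene is said to have fallen or risen where limma's p-value, adjusted over 13160 features by the Benjamini-Hochberg method, was under 0.05. A second fit with the array set as a block is named wherever its values are given.

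In NUP98-CDX4 cells 18 of the 28 measured genes fell relative to EGFP cells and 0 rose, where 3.36% of all named genes fell and 2.74% rose. The 18 were the growth factor receptor genes Csf1r and Csf2ra, the transcription factor gene Klf4, the surface protein genes Adgre1, Mpeg1 and Sirpa, C1qa, the Fc receptor genes Fcgr1 and Fcgr3, the uptake receptor genes Trem2, Mrc1 and Msr1, Lyz1, Lyz2, Gpnmb, Apoe, Lpl and Lgals3. The median log2 fold change was -1.26 over the 28 genes and 0.03 over all named genes. All 3 NUP98-CDX4 values lay below all 3 EGFP values for 23 of the 28 genes, as they did for 9.87% of named genes, and above them for 0 of the 28 and 12.6% of named genes. Of the 23 genes detected on every array, 15 fell, and 20 had all NUP98-CDX4 values below all EGFP values. With the array set as a block 25 of the 28 fell and 0 rose, where 8.56% of named genes fell and 9.75% rose. Both the 18 and the 25 include Klf4 and C1qa, which had passed the detection rule through EGFP cells alone.

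In NUP98-CDX1 cells 4 of the 28 genes fell relative to EGFP cells, Csf2ra, Klf4, Adgre1 and Apoe, and 0 rose, where 0.499% of all named genes fell and 0.729% rose. The median log2 fold change was -0.72 over the 28 genes and 0.03 over all named genes. All 3 NUP98-CDX1 values lay below all 3 EGFP values for 16 of the 28 genes, as they did for 6.4% of named genes, and above them for 0 of the 28 and 9.86% of named genes. At an unadjusted p under 0.05, 12 of the 28 were lower and 0 higher, where 4.44% of named genes were lower. Of the 23 genes detected on every array, 3 fell, since Klf4 had passed the detection rule through EGFP cells alone. Among these 23 genes, 13 had all NUP98-CDX1 values below all EGFP values. With the array set as a block 14 fell and 0 rose, where 2.95% of named genes fell and 3.22% rose. The added genes were Csf1r, Ccr2, Mpeg1, C1qa, C1qb, C1qc, Fcgr1, Tyrobp, Mrc1 and Msr1. C1qa, like Klf4, had passed the detection rule through EGFP cells alone. The comparisons of both fusions share the same 3 EGFP arrays. In 22 of the 28 genes the NUP98-CDX4 mean was the lowest and the EGFP mean the highest, with NUP98-CDX1 between them. Total RNA of each sample was measured, and the labels do not say whether cells were sorted first. Fewer macrophages and less RNA per macrophage therefore cannot be told apart.

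**Figure D1:**
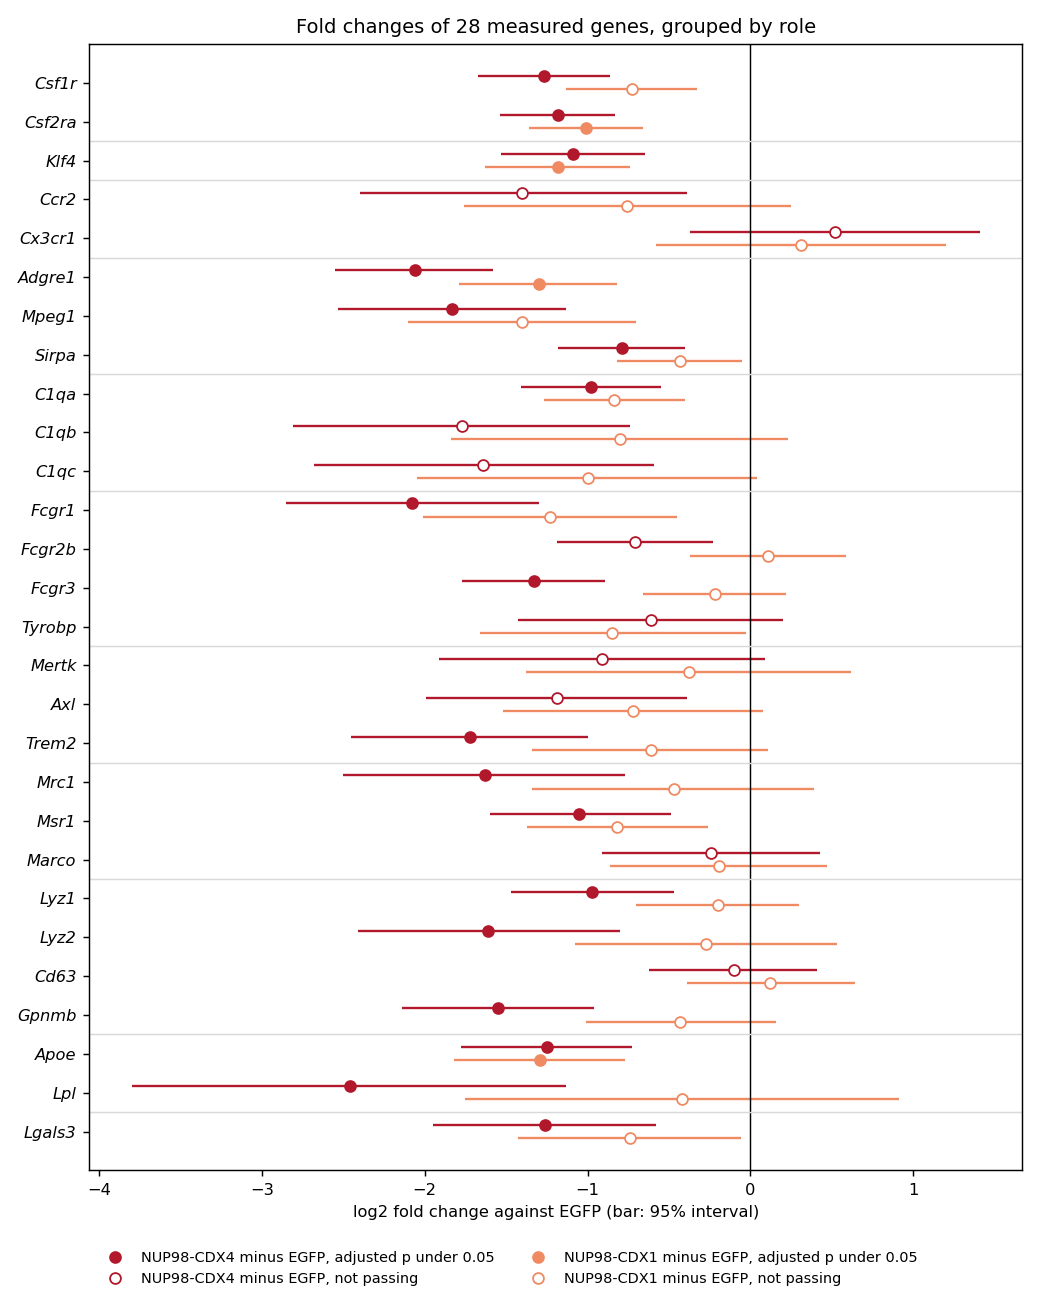
Log2 fold changes of the 28 measured genes, grouped by role, for NUP98-CDX4 minus EGFP (dark red, upper of each pair) and NUP98-CDX1 minus EGFP (orange, lower); bars are 95% confidence intervals and filled points have an adjusted p under 0.05. Filled points lie left of 0 for 18 genes with NUP98-CDX4 and 4 genes with NUP98-CDX1, and Cx3cr1 lies right of 0 in both with intervals that span 0.

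**Figure D2:**
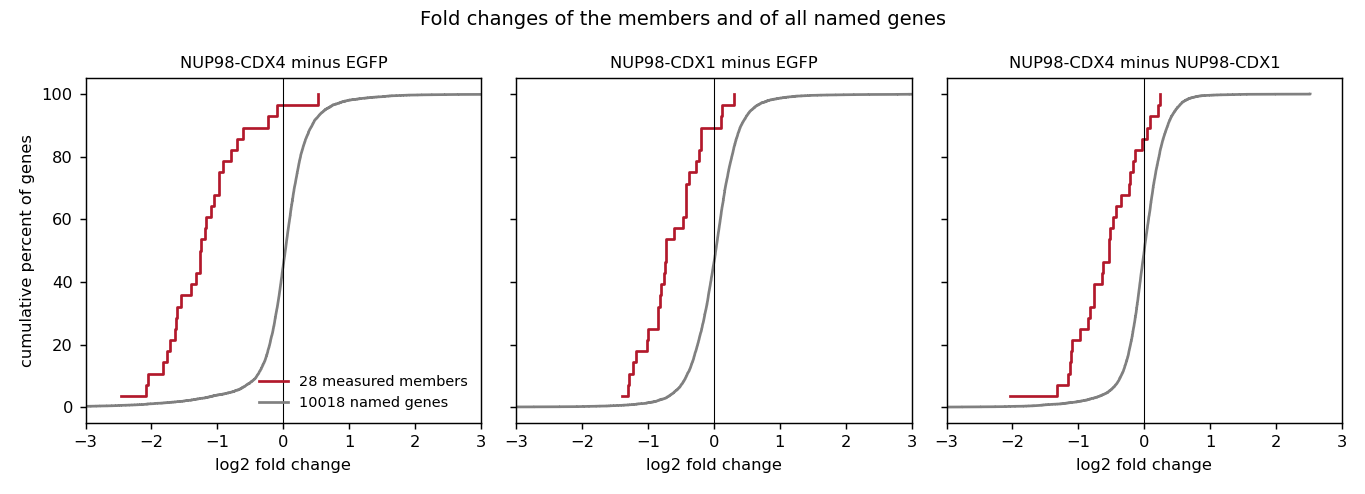
Cumulative percent of genes by log2 fold change for the 28 measured monocyte and macrophage genes (red, named members in the key) and all 10018 named genes (grey) in 3 comparisons. The red curves lie left of the grey ones, with medians of -1.26, -0.72 and -0.53 against 0.03, 0.03 and 0 from the left panel to the right.

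Both growth factor receptors fell with NUP98-CDX4, and 1 of the 2, Csf2ra, fell with NUP98-CDX1. Csf2ra, the GM-CSF-binding chain of the GM-CSF receptor, read 9.17, 9.02 and 8.95 in NUP98-CDX4 cells, 9.11, 9.06 and 9.50 in NUP98-CDX1 cells and 10.19, 10.28 and 10.22 in EGFP cells. Every fusion array lay below every EGFP array, and the fusions overlapped each other. Csf2ra fell 2.27-fold with NUP98-CDX4 (limma adjusted p = 0.00282) and 2.01-fold with NUP98-CDX1 (limma adjusted p = 0.0204).

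Csf1r, the receptor for CSF1 and IL-34, read 9.19, 9.25 and 8.76 in NUP98-CDX4 cells, 9.46, 9.84 and 9.51 in NUP98-CDX1 cells and 10.22, 10.40 and 10.38 in EGFP cells. The 3 groups did not overlap, with NUP98-CDX4 lowest and EGFP highest. Csf1r fell 2.40-fold with NUP98-CDX4 (limma adjusted p = 0.0039). Its log2 difference with NUP98-CDX1, -0.73 ± 0.18 (SE), had a limma adjusted p of 0.106, and of 0.0211 with the array set as a block. A second Csf1r probe, detected on all arrays, differed by -1.29 with NUP98-CDX4 and -0.82 with NUP98-CDX1.

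Klf4, a zinc finger factor needed for inflammatory monocytes in mice, was detected on 0 of 3 arrays with NUP98-CDX4, 0 of 3 with NUP98-CDX1 and 3 of 3 with EGFP, where it read 6.08, 5.57 and 6.27. For a bound, each undetected array was placed no lower than its own lowest detected signal. Klf4 was then at least 1.54-fold lower with NUP98-CDX4 and at least 1.60-fold lower with NUP98-CDX1. Its limma adjusted p-values, 0.013 and 0.0281, are those of the signals as read and not of these bounds. A gene that entered through detection in EGFP cells alone could only be lower in the fusions.

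Neither homing receptor passed. Ccr2 read 7.29, 8.13 and 6.84 in NUP98-CDX4 cells, 8.15, 8.65 and 7.37 in NUP98-CDX1 cells and 8.29, 8.59 and 9.57 in EGFP cells. The NUP98-CDX4 arrays lay below the EGFP arrays and the NUP98-CDX1 arrays overlapped both groups. Its log2 differences were -1.40 with NUP98-CDX4 and -0.76 with NUP98-CDX1, each ± 0.45 (SE), with limma adjusted p-values of 0.13 and 0.596, and of 0.000694 and 0.00867 with the array set as a block.

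Cx3cr1, the fractalkine receptor of patrolling monocytes, read 8.70, 8.79 and 7.81 in NUP98-CDX4 cells, 7.57, 9.07 and 8.01 in NUP98-CDX1 cells and 7.76, 7.71 and 8.27 in EGFP cells. The groups overlapped. It was the only gene of the 28 whose mean was higher with both fusions than in EGFP cells, by 0.52 and 0.31 on the log2 scale for NUP98-CDX4 and NUP98-CDX1 (limma adjusted p = 0.683 and 0.796).

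Among the surface proteins, Adgre1 encodes the adhesion receptor by which mouse macrophages are commonly recognised. It read 8.52, 8.10 and 7.61 in NUP98-CDX4 cells, 8.82, 8.87 and 8.83 in NUP98-CDX1 cells and 10.16, 10.26 and 10 in EGFP cells. The 3 groups were apart, with NUP98-CDX4 lowest. Adgre1 fell 4.18-fold with NUP98-CDX4 (limma adjusted p = 0.00104) and 2.46-fold with NUP98-CDX1 (limma adjusted p = 0.0281). Its other 2 probes differed by -2.10 and -1.80 with NUP98-CDX4, and by -1.16 and -1.04 with NUP98-CDX1.

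Mpeg1, the pore-forming protein perforin-2 of phagocytes, read 10.14, 9.50 and 9.26 in NUP98-CDX4 cells, 9.55, 10.13 and 10.49 in NUP98-CDX1 cells and 11.78, 11.55 and 11.05 in EGFP cells. Every fusion array lay below every EGFP array. Mpeg1 fell 3.55-fold with NUP98-CDX4 (limma adjusted p = 0.00983). With NUP98-CDX1 its log2 difference of -1.40 ± 0.31 (SE) had a limma adjusted p of 0.0784, and of 0.0243 with the array set as a block.

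Sirpa, the receptor that reads CD47 as a signal not to engulf, averaged 11.97 ± 0.18 in NUP98-CDX4, 12.32 ± 0.20 in NUP98-CDX1 and 12.76 ± 0.19 in EGFP cells (SD, n = 3 each). The fusion arrays lay below the EGFP arrays in both comparisons. Sirpa fell 1.73-fold with NUP98-CDX4 (limma adjusted p = 0.0296), and its log2 difference of -0.43 with NUP98-CDX1 did not pass (limma adjusted p = 0.37).

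**Figure D3:**
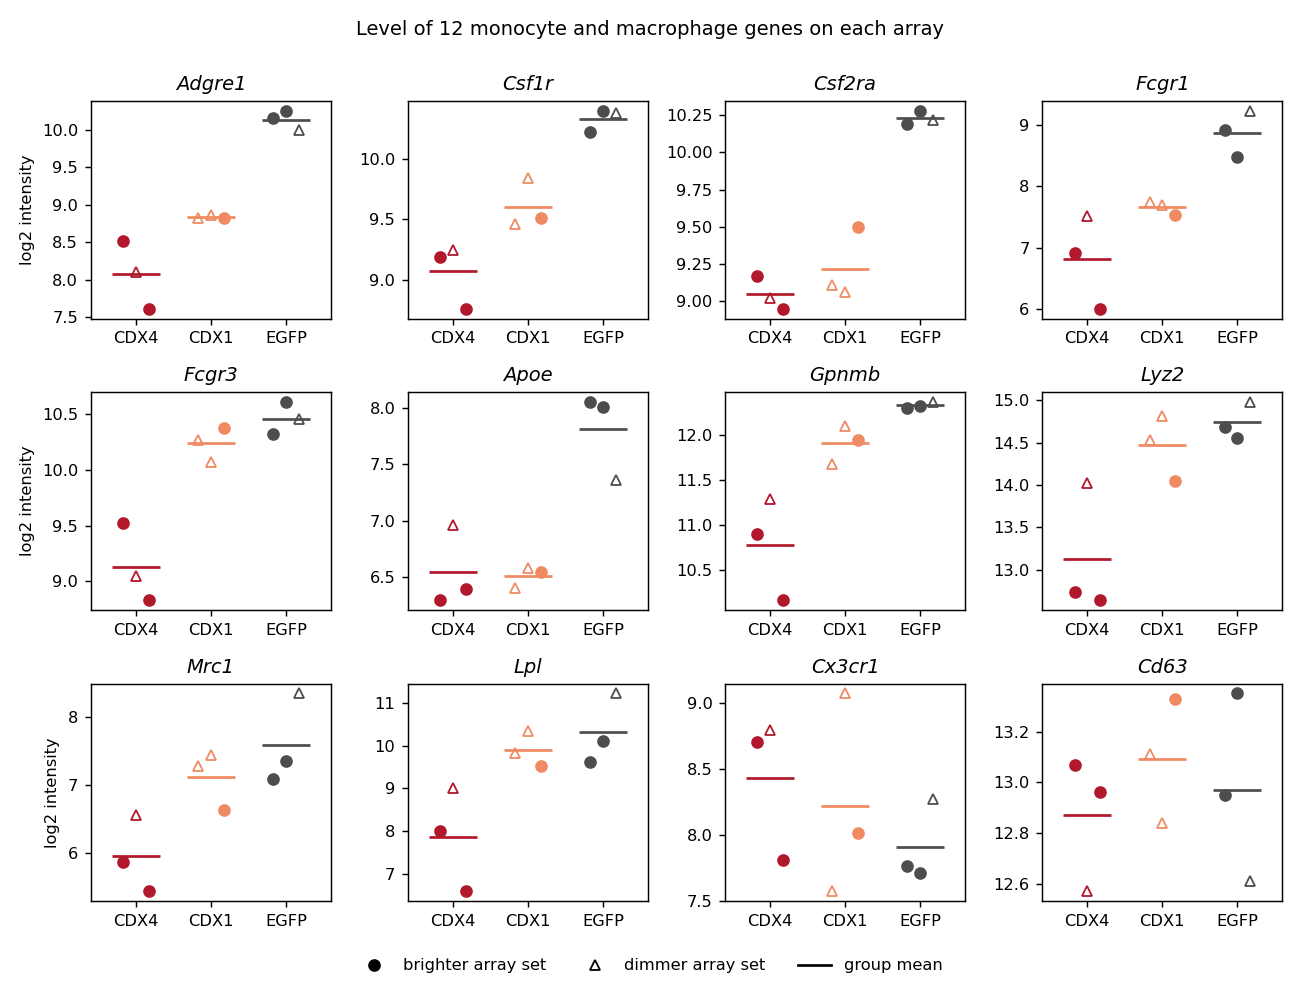
Log2 intensity of 12 genes on each of the 9 arrays, with NUP98-CDX4, NUP98-CDX1 and EGFP from left to right in each panel, a line at each group's mean, circles for the brighter and triangles for the dimmer array set. Csf2ra, Csf1r, Adgre1, Fcgr1 and Apoe show all fusion arrays below all EGFP arrays, Fcgr3, Lyz2, Mrc1 and Lpl show NUP98-CDX4 alone below EGFP, and Cx3cr1 and Cd63 show groups that overlap.

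The subunits of C1q, the recognition molecule of the classical complement pathway, had lower means with both fusions. C1qb read 6.95, 7.89 and 6.45 in NUP98-CDX4 cells, 8.56, 8.26 and 7.38 in NUP98-CDX1 cells and 8.24, 8.77 and 9.60 in EGFP cells. The NUP98-CDX4 arrays lay below the EGFP arrays, and the NUP98-CDX1 arrays overlapped them. C1qb differed by -1.77 with NUP98-CDX4 and -0.80 with NUP98-CDX1 on the log2 scale, and passed only with the array set as a block (limma adjusted p = 0.0627 and 0.586 without it, 0.000299 and 0.00875 with it).

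C1qc read 6.86, 7.17 and 5.68 in NUP98-CDX4 cells, 7.65, 7.27 and 6.68 in NUP98-CDX1 cells and 7.76, 7.78 and 9.07 in EGFP cells. Every fusion array lay below every EGFP array. Its differences of -1.64 with NUP98-CDX4 and -1.0 with NUP98-CDX1 likewise passed only with the block (limma adjusted p = 0.0877 and 0.468 without it, 0.00368 and 0.0285 with it). C1qa was detected on the EGFP arrays alone, at 5.42, 5.98 and 5.89, so its direction was fixed by the detection rule. It was at least 1.34-fold lower with NUP98-CDX4. Its limma adjusted p of 0.0186 is that of the signals as read and not of this bound. With NUP98-CDX1 C1qa did not pass (limma adjusted p = 0.0875, and 0.0333 with the block).

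Fc receptors bind antibody-coated particles. Fcgr1, the high-affinity IgG receptor, read 6.91, 7.51 and 6.0 in NUP98-CDX4 cells, 7.74, 7.69 and 7.54 in NUP98-CDX1 cells and 8.93, 8.48 and 9.24 in EGFP cells. The 3 groups were apart, with NUP98-CDX4 lowest and EGFP highest. Fcgr1 fell 4.22-fold with NUP98-CDX4 (limma adjusted p = 0.0089), and its NUP98-CDX1 difference of -1.23 ± 0.35 (SE) had a limma adjusted p of 0.165, and of 0.0178 with the array set as a block.

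Fcgr3, an activating low-affinity receptor, read 9.52, 9.05 and 8.83 in NUP98-CDX4 cells, 10.27, 10.07 and 10.38 in NUP98-CDX1 cells and 10.32, 10.61 and 10.46 in EGFP cells. NUP98-CDX4 lay below both other groups, which overlapped each other. Fcgr3 fell 2.51-fold with NUP98-CDX4 (limma adjusted p = 0.00507), while its NUP98-CDX1 difference of -0.22 had a 95% interval of -0.66 to 0.22.

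Fcgr2b, the inhibitory Fc receptor, read 10.77, 11.06 and 10.56 in NUP98-CDX4 cells, 11.72, 11.78 and 11.36 in NUP98-CDX1 cells and 11.31, 11.34 and 11.88 in EGFP cells. NUP98-CDX4 was again below both other groups. Its log2 difference of -0.71 from EGFP cells had a limma adjusted p of 0.104, and of 0.00131 with the array set as a block. Fc receptor genes resemble each other in sequence, so a probe of 1 may read another.

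Tyrobp, the adaptor DAP12 that signals for TREM2 and other receptors, read 11.31, 10.68 and 11.52 in NUP98-CDX4 cells, 10.61, 10.68 and 11.53 in NUP98-CDX1 cells and 12.20, 12.06 and 11.10 in EGFP cells. The groups overlapped, and EGFP replicate 3, of the dimmer set, was the low EGFP array. Tyrobp passed in neither comparison (limma adjusted p = 0.52 with NUP98-CDX4 and 0.421 with NUP98-CDX1), and in both with the array set as a block (0.0047 and 0.0238).

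Among receptors for dead cells, Trem2, which binds lipids and apoptotic cells, read 7.50, 7.40 and 6.32 in NUP98-CDX4 cells, 7.73, 8.60 and 8.22 in NUP98-CDX1 cells and 8.68, 8.85 and 8.86 in EGFP cells. The 3 groups did not overlap. Trem2 fell 3.30-fold with NUP98-CDX4 (limma adjusted p = 0.0152), and its NUP98-CDX1 difference of -0.61 did not pass (limma adjusted p = 0.541). Axl, an engulfment kinase, averaged 7.53 ± 0.74 in NUP98-CDX4, 8.0 ± 0.32 in NUP98-CDX1 and 8.72 ± 0.36 in EGFP cells (SD, n = 3 each). Its differences of -1.19 with NUP98-CDX4 and -0.72 with NUP98-CDX1 did not pass (limma adjusted p = 0.104 and 0.511), although neither fusion overlapped EGFP. Axl passed under the array set block with NUP98-CDX4 (limma adjusted p = 0.0148) and not with NUP98-CDX1 (0.0871). Mertk, a related kinase, was detected on 1 of 3 NUP98-CDX4, 2 of 3 NUP98-CDX1 and 1 of 3 EGFP arrays, and its differences of -0.91 and -0.38 did not pass (limma adjusted p = 0.383 and 0.776). With the block Mertk passed with NUP98-CDX4 (limma adjusted p = 0.00937) and not with NUP98-CDX1 (0.0615).

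Mrc1, the mannose receptor CD206, read 5.87, 6.56 and 5.44 in NUP98-CDX4 cells, 7.28, 7.44 and 6.64 in NUP98-CDX1 cells and 7.08, 7.35 and 8.34 in EGFP cells. NUP98-CDX4 lay below both other groups, and NUP98-CDX1 overlapped EGFP. Mrc1 fell 3.10-fold with NUP98-CDX4 (limma adjusted p = 0.0417), and its NUP98-CDX1 difference of -0.47 did not pass (limma adjusted p = 0.7, and 0.0208 with the array set as a block). Msr1, a scavenger receptor for modified lipoprotein, was detected on 1 of 3 NUP98-CDX4, 2 of 3 NUP98-CDX1 and 3 of 3 EGFP arrays. It fell with NUP98-CDX4 (limma adjusted p = 0.0417), and with NUP98-CDX1 only with the array set as a block (limma adjusted p = 0.198 without it, 0.00235 with it). No fold is given for Msr1, since most NUP98-CDX4 arrays did not detect it. Marco, a scavenger receptor that binds bacteria, was detected on 0, 1 and 2 of 3 arrays in the same order of groups and passed in neither comparison (limma adjusted p = 0.879 and 0.825).

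Lysozyme digests bacterial walls; in mice Lyz2 is the form of macrophages and neutrophils, and Lyz1 is best known from Paneth cells. Lyz2 read 12.74, 14.02 and 12.64 in NUP98-CDX4 cells, 14.53, 14.82 and 14.05 in NUP98-CDX1 cells and 14.69, 14.55 and 14.98 in EGFP cells. NUP98-CDX4 lay below both other groups, with its dimmer-set array, replicate 2, the highest of its 3. Lyz2 fell 3.04-fold with NUP98-CDX4 (limma adjusted p = 0.0333), and its NUP98-CDX1 difference of -0.27 had a 95% interval of -1.08 to 0.53. Its other 2 probes differed by -1.91 and -2.11 with NUP98-CDX4 and by -1.0 and -0.92 with NUP98-CDX1. Lyz1 fell 1.96-fold with NUP98-CDX4 (limma adjusted p = 0.0364), and a dimmer Lyz1 probe differed by -2.0, against -0.97 for the brightest. The 2 lysozyme genes are near copies, so their probes may read both.

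Gpnmb, a lysosomal membrane glycoprotein of lipid-laden macrophages, read 10.90, 11.29 and 10.16 in NUP98-CDX4 cells, 11.68, 12.10 and 11.95 in NUP98-CDX1 cells and 12.30, 12.33 and 12.37 in EGFP cells. The 3 groups were apart, and the EGFP arrays lay close together. Gpnmb fell 2.93-fold with NUP98-CDX4 (limma adjusted p = 0.00949), and its NUP98-CDX1 difference of -0.43 had a 95% interval of -1.01 to 0.16. Its other probes did not move alike, with -1.58 with NUP98-CDX4 for the probe detected on 9 arrays and -0.32 for the probe detected on 3. The tetraspanin gene Cd63, whose protein sits in lysosomes and granules of many cell types, read 13.07, 12.57 and 12.96 in NUP98-CDX4 cells, 13.11, 12.84 and 13.33 in NUP98-CDX1 cells and 12.95, 13.35 and 12.61 in EGFP cells. All groups overlapped. The 95% interval of its log2 difference was -0.62 to 0.41 with NUP98-CDX4 and -0.39 to 0.64 with NUP98-CDX1.

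Apoe, the lipid carrier that macrophages secrete, read 6.30, 6.96 and 6.40 in NUP98-CDX4 cells, 6.41, 6.58 and 6.55 in NUP98-CDX1 cells and 8.05, 8.01 and 7.36 in EGFP cells. Every fusion array lay below every EGFP array, and the fusions overlapped each other. Apoe fell 2.39-fold with NUP98-CDX4 (limma adjusted p = 0.0152) and 2.45-fold with NUP98-CDX1 (limma adjusted p = 0.0391). Lpl, lipoprotein lipase, read 7.99, 9.02 and 6.58 in NUP98-CDX4 cells, 9.83, 10.35 and 9.53 in NUP98-CDX1 cells and 9.63, 10.12 and 11.23 in EGFP cells. NUP98-CDX4 was lowest and had the widest spread of the 28 genes, and NUP98-CDX1 overlapped EGFP. Lpl fell 5.51-fold with NUP98-CDX4 (limma adjusted p = 0.0452), the largest fold change of the 28 genes and the one with the largest SE, 0.59.

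Lgals3, the lectin galectin-3 or Mac-2, averaged 12.15 ± 0.62 in NUP98-CDX4, 12.67 ± 0.36 in NUP98-CDX1 and 13.41 ± 0.17 in EGFP cells (SD, n = 3 each). Neither fusion overlapped EGFP. It fell 2.40-fold with NUP98-CDX4 (limma adjusted p = 0.0452), and its NUP98-CDX1 difference of -0.74 did not pass (limma adjusted p = 0.395).

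**Figure D4:**
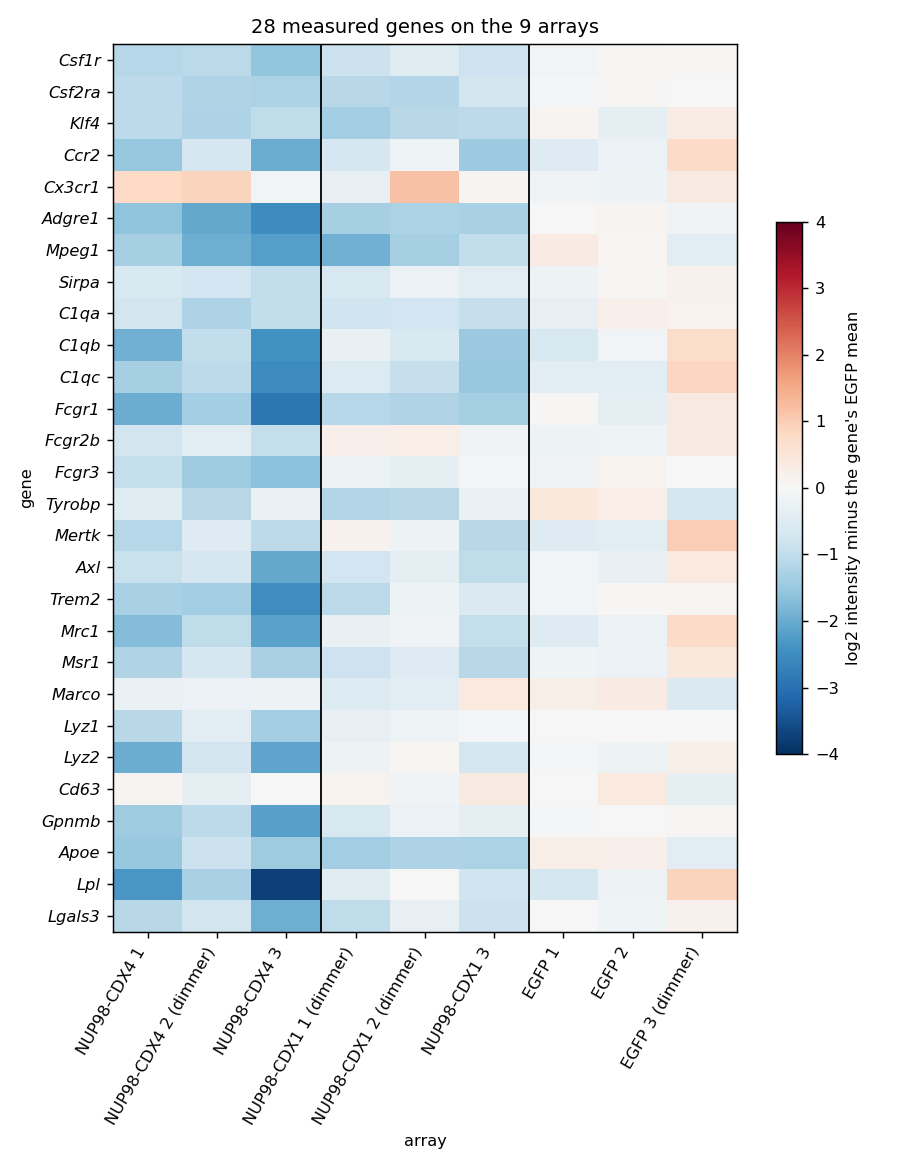
Log2 intensity minus the gene's EGFP mean for the 28 measured genes (rows, by role) on the 9 arrays (columns, NUP98-CDX4, NUP98-CDX1, then EGFP), blue for lower and red for higher. NUP98-CDX4 replicate 3, with day number 20, had the lowest value of the 9 arrays for 20 of the 28 genes, and EGFP replicate 3 had the highest for 16.

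Promoter windows are shown for 3 of the genes that fell with both fusions, so that their start regions can be compared. RefSeq on GRCm38.p6 gave a window of 300 bases, 250 before and 50 after a start site, for 21 of the 28 genes. Capitals mark GAGGAA on either strand, the core letters of many PU.1 sites. The windows are chr19:61228369-61228668 on the minus strand for Csf2ra, chr4:55532426-55532725 on the minus strand for Klf4 and chr7:19699139-19699438 on the minus strand for Apoe, the first of 3 listed for that gene.
Csf2ra: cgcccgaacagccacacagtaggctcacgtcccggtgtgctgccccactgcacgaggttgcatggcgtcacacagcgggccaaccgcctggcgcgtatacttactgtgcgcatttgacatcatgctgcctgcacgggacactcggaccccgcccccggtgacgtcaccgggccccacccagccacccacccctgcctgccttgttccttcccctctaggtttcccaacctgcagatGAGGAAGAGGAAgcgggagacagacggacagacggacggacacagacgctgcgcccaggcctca
Klf4: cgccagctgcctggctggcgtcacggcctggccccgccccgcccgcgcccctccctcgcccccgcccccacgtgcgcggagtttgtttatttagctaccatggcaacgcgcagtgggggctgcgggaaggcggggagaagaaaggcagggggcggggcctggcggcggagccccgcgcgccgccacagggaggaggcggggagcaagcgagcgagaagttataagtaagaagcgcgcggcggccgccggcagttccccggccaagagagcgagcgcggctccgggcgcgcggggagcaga
Apoe: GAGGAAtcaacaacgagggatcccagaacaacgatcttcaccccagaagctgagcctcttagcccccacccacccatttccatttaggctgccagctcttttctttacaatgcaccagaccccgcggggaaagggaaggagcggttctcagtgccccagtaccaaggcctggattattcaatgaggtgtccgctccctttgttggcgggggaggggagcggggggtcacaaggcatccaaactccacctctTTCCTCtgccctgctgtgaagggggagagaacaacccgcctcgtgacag
Csf2ra held 2 matches, Klf4 0 and Apoe 2. Of all windows of the measured genes 13 of 24 (54.2%) held GAGGAA, against 28.3% of 32851 windows of the same length. The 24 windows belong to 21 genes, with 3 for Apoe and 2 for Fcgr3, and 11 of the 21 genes held a match. These 11 include genes that did not fall with either fusion, Cd63 and Marco among them. Other letters, also sought on both strands, were a KLF sequence (CCACCC) in 37.5% of the genes' windows and 31.5% of all, and a Maf recognition sequence (TGCTGA) in 16.7% and 19.5%. An AP-1 sequence (TGANTCA) was in 8.33% and 7.81%, an E-box (CACGTG) in 4.17% and 7.15%, and a C/EBP sequence (TTGCGCA) in 0 of 24 windows and 2.02% of all. A match describes letters in a window and shows no bound factor.

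The fusions were then compared directly, NUP98-CDX4 minus NUP98-CDX1. None of the 28 genes passed in limma in either direction, where 0.14% of named genes were lower and 0.0399% higher with NUP98-CDX4. At an unadjusted p under 0.05, 11 were lower and 0 higher, where 4.71% of named genes were lower. The median log2 difference was -0.53 over the 28 genes and 0 over all named genes, and -0.31 over the 28 genes without NUP98-CDX4 replicate 3. All 3 NUP98-CDX4 values lay below all 3 NUP98-CDX1 values for 11 of the 28 genes, as they did for 5.85% of named genes, and above them for 0 of the 28 and 4.65% of named genes.

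With the array set as a block 4 genes were lower with NUP98-CDX4 than with NUP98-CDX1 and 0 were higher, where 1.3% of named genes were lower and 0.379% higher. Fcgr3 differed by -1.14 in that fit (limma adjusted p = 0.0254, and 0.0929 without the block). Lyz2 differed by -1.08 (limma adjusted p = 0.0387, and 0.26 without it), and Mrc1 by -0.85 (limma adjusted p = 0.0358, and 0.451 without it). Fcgr2b differed by -0.67 (limma adjusted p = 0.0193, and 0.236 without it). Its other 3 probes detected on all arrays differed by -0.21, -0.26 and 0.04 without the block, against -0.82 for the brightest. In a blocked fit of all kept probes their limma adjusted p-values were 0.441, 0.0443 and 0.39, against 0.0232 for the brightest. The other 2 Lyz2 probes had limma adjusted p-values of 0.0428 and 0.0461 in that fit.

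For the genes that fell with both fusions, the NUP98-CDX4 minus NUP98-CDX1 difference was 0.04 for Apoe (95% interval -0.49 to 0.57) and -0.18 for Csf2ra (-0.53 to 0.17). Klf4 was undetected with both fusions. Adgre1 differed by -0.76 (-1.25 to -0.28) without passing after adjustment (limma adjusted p = 0.311). Lpl had the largest difference of the 28, -2.04 (-3.37 to -0.71), and did not pass either (limma adjusted p = 0.332).

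Promoter windows of 3 of the 4 genes that were lower with NUP98-CDX4 in the blocked fit are shown beside those above, again with GAGGAA on either strand in capitals. They are chr1:171059354-171059653 on the minus strand for Fcgr3, the first of 2 listed, chr2:14229164-14229463 on the plus strand for Mrc1 and chr10:117282223-117282522 on the minus strand for Lyz2.
Fcgr3: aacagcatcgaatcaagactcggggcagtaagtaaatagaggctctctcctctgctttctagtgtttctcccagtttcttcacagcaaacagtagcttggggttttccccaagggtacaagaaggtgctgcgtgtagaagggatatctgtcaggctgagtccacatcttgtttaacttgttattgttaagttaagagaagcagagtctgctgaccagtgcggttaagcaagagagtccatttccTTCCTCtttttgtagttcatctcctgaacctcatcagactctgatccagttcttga
Mrc1: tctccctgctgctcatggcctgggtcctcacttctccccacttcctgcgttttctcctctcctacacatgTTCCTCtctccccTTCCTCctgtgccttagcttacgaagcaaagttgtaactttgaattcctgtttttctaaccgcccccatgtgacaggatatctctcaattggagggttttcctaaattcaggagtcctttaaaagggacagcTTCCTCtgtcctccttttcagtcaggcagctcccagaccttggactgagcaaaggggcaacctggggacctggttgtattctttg
Lyz2: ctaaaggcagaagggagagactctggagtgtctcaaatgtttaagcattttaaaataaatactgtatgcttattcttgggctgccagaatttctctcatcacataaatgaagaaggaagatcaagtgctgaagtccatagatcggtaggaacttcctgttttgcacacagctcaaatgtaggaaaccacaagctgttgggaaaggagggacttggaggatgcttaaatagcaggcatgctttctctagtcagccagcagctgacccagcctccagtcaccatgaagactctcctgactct
Fcgr3 held 1 match, Mrc1 3 and Lyz2 0.

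The genes also differed between array sets with the groups held equal. The brighter minus dimmer difference was -1.22 for Lpl, -1.10 for C1qb, -1.07 for Ccr2, -1.05 for Mertk and -0.99 for C1qc, and 0.88 for Tyrobp. It was at or below -0.5 for 10 of the 28 genes and at or above 0.5 for 2. Averaged over the groups, the genes that fell with both fusions differed little between sets, Adgre1 by 0.05, Csf2ra by 0.16, Apoe by 0.04 and Klf4 by -0.02. Klf4 was undetected on every fusion array. Their NUP98-CDX4 log2 fold changes within the brighter and the dimmer set were -2.15 and -1.90 for Adgre1 and -1.17 and -1.21 for Csf2ra. For Apoe they were -1.68 and -0.40, and for Klf4 -0.88 and -1.52. With NUP98-CDX1 those of Apoe were -1.48 and -0.87. The median log2 fold change of the 28 genes against EGFP was -1.31 with NUP98-CDX4 and -0.68 with NUP98-CDX1 within the brighter set, and -1.17 and -0.9 within the dimmer set. All these within-set values rest on few arrays. In the dimmer set the only NUP98-CDX4 array was replicate 2 and the only EGFP array replicate 3. In the brighter set the only NUP98-CDX1 array was replicate 3.

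Further genes of the same cells were counted from accompanying lists. Of 26 measured other monocyte and macrophage genes 10 fell and 0 rose with NUP98-CDX4, and 2 fell and 1 rose with NUP98-CDX1. Over all named genes 3.36% fell and 2.74% rose with NUP98-CDX4, and 0.499% fell and 0.729% rose with NUP98-CDX1. With the array set as a block 15 fell and 1 rose with NUP98-CDX4, and 8 fell and 1 rose with NUP98-CDX1. In that fit 8.56% of named genes fell and 9.75% rose with NUP98-CDX4, and 2.95% fell and 3.22% rose with NUP98-CDX1. Ms4a7, a membrane protein of macrophages, read 8.69, 8.85 and 7.75 in NUP98-CDX4 cells, 9.38, 9.61 and 9.51 in NUP98-CDX1 cells and 10.72, 10.95 and 11.16 in EGFP cells. The 3 groups were apart. Ms4a7 fell 5.70-fold with NUP98-CDX4 and 2.72-fold with NUP98-CDX1 (limma adjusted p = 0.00123 and 0.0464). Ctss, a lysosomal cysteine protease, fell 2.83-fold and 2.26-fold (limma adjusted p = 0.00314 and 0.0314).

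Chil3, a chitinase-like secreted protein detected on 2 of 3 NUP98-CDX4 arrays, fell 14.8-fold with NUP98-CDX4 (limma adjusted p = 0.00339), and the chemokine gene Ccl6 fell 3.55-fold (limma adjusted p = 0.00137). Cd14, the lipopolysaccharide co-receptor, read 9.96, 10.06 and 9.71 in NUP98-CDX4 cells, 10.73, 10.68 and 10.60 in NUP98-CDX1 cells and 9.80, 9.69 and 9.94 in EGFP cells. NUP98-CDX1 lay above both other groups, which overlapped. Cd14 rose 1.81-fold with NUP98-CDX1 (limma adjusted p = 0.0314) and was the 1 gene of this list that rose.

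With NUP98-CDX4, where 3.36% of named genes fell and 2.74% rose, 3 of 17 measured myeloid transcription factor genes fell and 0 rose. They were Cebpe, a factor of late granulocytes (4.55-fold, limma adjusted p = 0.00133), Cebpb, a factor of monocytes and other cells (1.86-fold, limma adjusted p = 0.0106), and Irf5, a factor of inflammatory macrophages (2.64-fold, limma adjusted p = 0.0225). With NUP98-CDX1 none passed in limma, with 7 lower and 0 higher at an unadjusted p under 0.05, where 4.44% of named genes were lower. Under the array set block 8 of the 17 fell with NUP98-CDX4 and 6 with NUP98-CDX1, where 8.56% and 2.95% of named genes fell. Spi1 was singled out after its values were seen, since it encodes PU.1, and read 9.50, 8.85 and 9.32 in NUP98-CDX4 cells, 9.40, 9.13 and 9.17 in NUP98-CDX1 cells and 9.77, 9.76 and 9.74 in EGFP cells. Every fusion array lay below every EGFP array, but differences of -0.53 with NUP98-CDX4 and -0.52 with NUP98-CDX1 did not pass (limma adjusted p = 0.16 and 0.29). Spi1 passed under the array set block with NUP98-CDX4 (limma adjusted p = 0.0421) and not with NUP98-CDX1 (0.131).

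Of 10 further measured genes of CSF1 and GM-CSF signalling, Csf2rb, the shared signalling chain of the GM-CSF receptor, fell 1.70-fold with NUP98-CDX4 (limma adjusted p = 0.0286). Socs2, a STAT5 target that dampens cytokine signals, rose 2.66-fold (limma adjusted p = 0.0238). Of all named genes 3.36% fell and 2.74% rose with NUP98-CDX4. With NUP98-CDX1 none of the 10 passed in limma. At an unadjusted p under 0.05, 0 were lower and 1 higher, where 4.44% of named genes were lower. The share of named genes higher at an unadjusted p is not given here. Of 12 phagocyte signalling genes the Src-family kinase gene Fgr, detected on 1 of 3 NUP98-CDX4 arrays, fell with NUP98-CDX4 (limma adjusted p = 0.00892). No fold is given at this detection. None of the 12 passed with NUP98-CDX1 in limma. At an unadjusted p under 0.05, 2 of them were lower and 0 higher with NUP98-CDX1, where 4.44% of named genes were lower. Of 15 genes of cholesterol efflux and lysosomal lipid handling 0 passed in limma with either fusion. At an unadjusted p under 0.05, 5 were lower and 1 higher with NUP98-CDX4, where 7.74% of named genes were lower, and 2 were lower and 2 higher with NUP98-CDX1, where 4.44% were lower. With the array set as a block 5 fell and 1 rose with NUP98-CDX4, and 2 fell and 1 rose with NUP98-CDX1. The shares of named genes in that fit were 8.56% and 9.75% with NUP98-CDX4, and 2.95% and 3.22% with NUP98-CDX1.

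Markers of other cell types also differed between the groups, given here as the log2 of their mean linear signal on each array. Such a level is set mostly by the brightest genes of a list. Of all named genes 3.36% fell and 2.74% rose with NUP98-CDX4, and 0.499% fell and 0.729% rose with NUP98-CDX1. Of 7 measured neutrophil markers 6 fell with NUP98-CDX4 and 4 with NUP98-CDX1. Mmp9, counted in both, was detected on the EGFP arrays alone, so its direction was fixed by the detection rule. Cxcr2 did not fall, and all its NUP98-CDX4 values lay above its EGFP values. It differed by 0.8 with NUP98-CDX4 (limma adjusted p = 0.165, and 0.0114 with the array set as a block). The level of the 7 was 9.08 to 9.35 in NUP98-CDX4, 9.85 to 10.41 in NUP98-CDX1 and 11.53 to 11.81 in EGFP cells. Of 6 mast cell markers 6 fell with NUP98-CDX4 and 3 with NUP98-CDX1, at 6.48 to 6.98, 9.22 to 9.33 and 9.54 to 10.11 in that order. The brightest, Cpa3, averaged 8.73, 11.68 and 11.79 in that order and weighed most in this level. The 3 that fell with NUP98-CDX1 were Cma1, Mcpt4 and Tpsb2, all dimmer than Cpa3. Tpsb2 was detected on the EGFP arrays alone, so its direction was fixed by the detection rule. Of 4 basophil and eosinophil markers 1 fell with NUP98-CDX4 and 0 with NUP98-CDX1 in limma, at 7.66 to 8.79, 9.29 to 9.83 and 10.4 to 11.17. At an unadjusted p under 0.05, 2 were lower with NUP98-CDX1, where 4.44% of named genes were lower. Of these 2, Epx was likewise detected on the EGFP arrays alone. Of 6 progenitor markers Meis1 and Hoxa9 rose with NUP98-CDX4 and Hoxa9 with NUP98-CDX1, at 11.05 to 11.29, 10.97 to 11.2 and 10.63 to 10.75. The part of these cell types in the results above was not tested.

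Dendritic cell, B cell and erythroid lists had 4, 2 and 2 measured genes, and 0 of these passed with either fusion in limma. At an unadjusted p under 0.05, 2, 0 and 0 were lower and 0 higher with NUP98-CDX4, where 7.74% of named genes were lower. With NUP98-CDX1, 1 dendritic cell gene was lower and 1 erythroid gene higher, where 4.44% of named genes were lower. None of 5 T cell markers, Cd3e among them, and none of 6 osteoclast markers, Ctsk among them, reached the detection rule on these arrays. Kit, the stem cell factor receptor of progenitors and mast cells, was detected on all 9 arrays, while the progenitor markers Flt3 and Ly6a were not measured, so these markers do not settle how primitive the cells were.

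The counts changed when single arrays were left out, while the median with NUP98-CDX4 against EGFP ranged from -1.41 to -1.12. Shares of all named genes in those fits are not given here, so whether counts of other genes changed alike was not tested. With NUP98-CDX4, Adgre1, Csf1r, Csf2ra, Fcgr1, Fcgr3, Gpnmb and Mpeg1 passed in every alternative other than the fits of 1 array set alone, which were used for medians and signs and not for calls. Klf4 passed in those that measured it, but its direction was fixed by the detection rule, and it was not measured in the fits without 1 EGFP array. The count of 18 became 10 without NUP98-CDX4 replicate 1, 9 without NUP98-CDX4 replicate 3, and 9, 7 and 9 without EGFP replicates 1, 2 and 3. The fits without EGFP replicates 1, 2 and 3 measured 25, 25 and 26 of the genes, and the fit without NUP98-CDX1 replicate 3 measured 27. With NUP98-CDX1, 0 of the 4 genes passed in every alternative. The count of 4 became 0 without NUP98-CDX1 replicate 1 or 2 or EGFP replicate 1 or 2, 1 without NUP98-CDX1 replicate 3 or EGFP replicate 3, and 2 without NUP98-CDX4 replicate 1.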

How the data were processed

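The deposited table of raw values gives the mean bead intensity and the detection p-value of 45281 probes on each of 9 arrays, exported by the authors with GenomeStudio per the submitters' processing notes, version not given in the sources used here. A second deposited table holds the authors' processed intensity values, whose normalization is not stated, and served as an alternative. Probe symbols came from the platform annotation. Signals were background-corrected, quantile-normalized and log2-transformed with neqc of limma 3.58.1 in R 4.3.3 (offset 16), which estimated the negative control signals through each probe's detection p-value. Probes detected (p under 0.05) on 3 or more arrays were kept, 19472 in all, and the brightest per gene was used, which left 13160 features, 3142 of them without a symbol. One mean per group was fitted over 9 arrays with limma (lmFit, eBayes), and p-values were adjusted over all features by the Benjamini-Hochberg method. The fit was tested on simulated data. Precision is limited by having 9 arrays.

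The members and all lists were chosen with earlier results of these data known. Every listed gene is accounted for, and from each accompanying list up to 4 genes per comparison with the smallest adjusted p under 0.05 could be named. Deviations of same-numbered replicates correlated at -0.79 to 0.67, so replicate numbers were not taken as pairs. Alternatives were another normalization, the authors' processed values, other detection filters, the array set or replicate number as a block, other probe summaries and variance settings, fits of 2 groups, and leaving out each array. Promoter windows are from RefSeq. Probe sequences were not used here.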

Additional observations from a re-analysis of the deposited data

How the results depend on the processing

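The genes measured changed with the filter and with the arrays kept, so the alternatives held 25 to 32 genes. Their median kept its sign in every alternative. For NUP98-CDX1 against EGFP it was -0.72, moved to -0.47 with quantile normalization without background correction, and ranged from -0.83 to -0.46 when 1 array was left out. The count of genes that fell with NUP98-CDX4 against EGFP, 18, was 10 with the replicate block, 10 in a fit of only the 2 groups compared, and 7 to 17 when 1 array was left out. The count with NUP98-CDX1 against EGFP, 4, was 2 with no detection filter, 14 with the array set as a block, 0 with the replicate block, 1 in a fit of only the 2 groups, and 0 to 4 when 1 array was left out. For NUP98-CDX4 against NUP98-CDX1 the count of lower genes, 0, was 4 with the array set as a block, 0 with the replicate block, and 0 to 2 when 1 array was left out, with 2 without NUP98-CDX4 replicate 2. The median of that comparison, -0.53, ranged from -0.76 to -0.31 when 1 array was left out, the last without NUP98-CDX4 replicate 3. No gene of the 28 passed as higher in any of these fits. Fits without 1 array of a group use fewer samples, and for the other changes the cause was not tested. Apart from the array set block, shares of all named genes in these fits are not given here. The sign of the fold change was the same in every alternative for 27 of the 28 genes with NUP98-CDX4 against EGFP, 22 with NUP98-CDX1 against EGFP and 22 with NUP98-CDX4 against NUP98-CDX1, and no gene that passed reversed. Genes near the detection limit, Mertk, Marco and Msr1 among them, are limited by signal over background.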
